A study of Homo sapiens with 6 samples.

Results

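The plasminogen activation system and the matrix proteases of this account are 9 genes, taken by symbol from the deposited count table: PLAU, PLAUR, PLAT, SERPINE2, MMP1, MMP14, TIMP1, TIMP2 and TIMP3. They are 9 of the 60604 genes used. Of the 9, 8 passed the filter on low counts that left 15022 genes for testing, and TIMP3 had no count in any library. The cells were of the human pancreatic carcinoma line MIA PaCa-2, an established line labelled as wild type, maintained in DMEM with serum. The 3 BP+Huaier libraries came from cells treated with both 12.5 µg/ml BP (black phosphorus, an allotrope built of stacked sheets) and 10 mg/ml Huaier, a preparation from a fungus used in Chinese medicine. The 3 BP libraries came from cells that had the same BP dose and no Huaier. All cells therefore carried BP, untreated cells were not analysed here, and no source states how long the treatment lasted. The question is how the transcripts of these genes differed once Huaier joined BP.

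Urokinase, encoded by PLAU, is a secreted serine protease that cuts plasminogen into plasmin, a broad protease of fibrin and matrix proteins. It is held at the cell surface by its receptor, the product of PLAUR, and blocked by inhibitors of the serpin family. Plasmin and membrane-anchored proteases help to activate matrix metalloproteinases (MMPs), which TIMP proteins inhibit. The system is known for its part in the invasion of pancreatic and other carcinomas.

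The libraries held between 15657593 and 17036565 counts on genes, so 3 counts corresponded to 0.160 to 0.222 CPM (counts scaled to library size with TMM factors). The labels do not tell whether replicate libraries stem from separate cultures. The p-values therefore reflect only how far these libraries differ, and that spread may be technical. BP+Huaier 3 stood apart from its group. Its score on the first principal component (72.4% of the variance) was 11.5, compared with 65.1 and 66.0 for BP+Huaier 1 and 2, and scores from -50.5 to -43.4 for BP. The log2 ratio of each library to the BP mean (for a BP library, to the other BP libraries) also correlated with transcript GC content, at r between 0.03 and 0.39 in BP+Huaier libraries and between -0.44 and 0.42 in BP libraries, across 14896 genes, which are not independent replicates. Of 7 epithelial markers KRT8, KRT18 and KRT19 were abundant and KRT7, EPCAM and CDH1 stayed under 1 CPM. Their summed level ran from 1560 to 3250 CPM in BP+Huaier libraries and from 1600 to 1770 CPM in BP libraries, with 2 of 4 tested markers (KRT18 and KRT19) higher and 1 lower. All 6 leukocyte and all 5 acinar markers stayed under 1 CPM, as did 4 of 5 endothelial markers, whose sum was 12.1 to 14.7 CPM in BP+Huaier libraries and 17.6 to 21.1 CPM in BP libraries with 1 marker called lower. Of 8 fibroblast markers DCN, LUM and FAP were at 0, while the list summed to 386 to 489 CPM in BP+Huaier libraries and 502 to 558 CPM in BP libraries, nearly all of it COL1A2, with 1 marker, COL1A1, called higher. The part of these markers in the results was not tested.

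The sequences shown first are the promoter stretches of the only members that rose, PLAU and PLAUR. They come from the RefSeq promoter table on GRCh38.p14, of which 8 windows of 6 members were searched (PLAU, PLAUR, SERPINE2, MMP14, TIMP1 and TIMP3). No window of PLAT, MMP1 or TIMP2 was searched. Capitals mark the match to the motif, and each stretch is 30 bases because exons of other annotated transcripts lie over parts of these windows. In PLAUR the capitals are TGANTCA, the AP-1 element, at positions -186 to -180 counted back from the transcript start at 43670169. In PLAU they are GGGCGG, the GC box bound by SP1 family factors, at -66 to -61 and -51 to -46 from the start at 73911132.
PLAUR, chr19:43670338-43670367, minus strand: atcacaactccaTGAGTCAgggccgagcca
PLAU, chr10:73911061-73911090, plus strand: gagccGGGCGGgagagggagGGGCGGcgcc

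Both strands of the 250 bases before each start were searched for the AP-1 element (TGANTCA), the GC box (GGGCGG) and the TATA box (TATAAA), and no matches overlapped in the member windows. The AP-1 element was found in 6.57% of all 35116 windows in the table and, among the member windows, in that of PLAUR. The GC box was found in 42.6% of all windows and in those of PLAU, SERPINE2, MMP14, TIMP1 and TIMP3. The PLAU window held 1 more GC box at -40 to -35, and a second PLAU start, at 73910610, had no match to any motif. The TATA box, found in 10.7% of all windows, had no match in the member windows searched. These matches describe letters in short windows and say nothing of binding.

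PLAU and PLAUR rose together when Huaier was added, and no other member passed the test in either direction. PLAUR rose 3.17-fold and PLAU 2.34-fold. Of the 8 tested members 2 were called higher and 0 lower, where a call means a Benjamini-Hochberg adjusted p under 0.05 in the edgeR quasi-likelihood test over 15022 genes. Of all tested genes 14.4% were called higher, 15.0% lower and 29.3% in either direction, and 4.42% were called and at least 2-fold higher, as PLAU and PLAUR were. Counts this small are not a result about the 9 genes as a set. The median log2 fold change was 0.30 over the tested members and -0.02 over all tested genes. In these bulk samples a change in the share of cells that express a gene and a change in RNA per cell cannot be told apart.

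**Figure D1:**
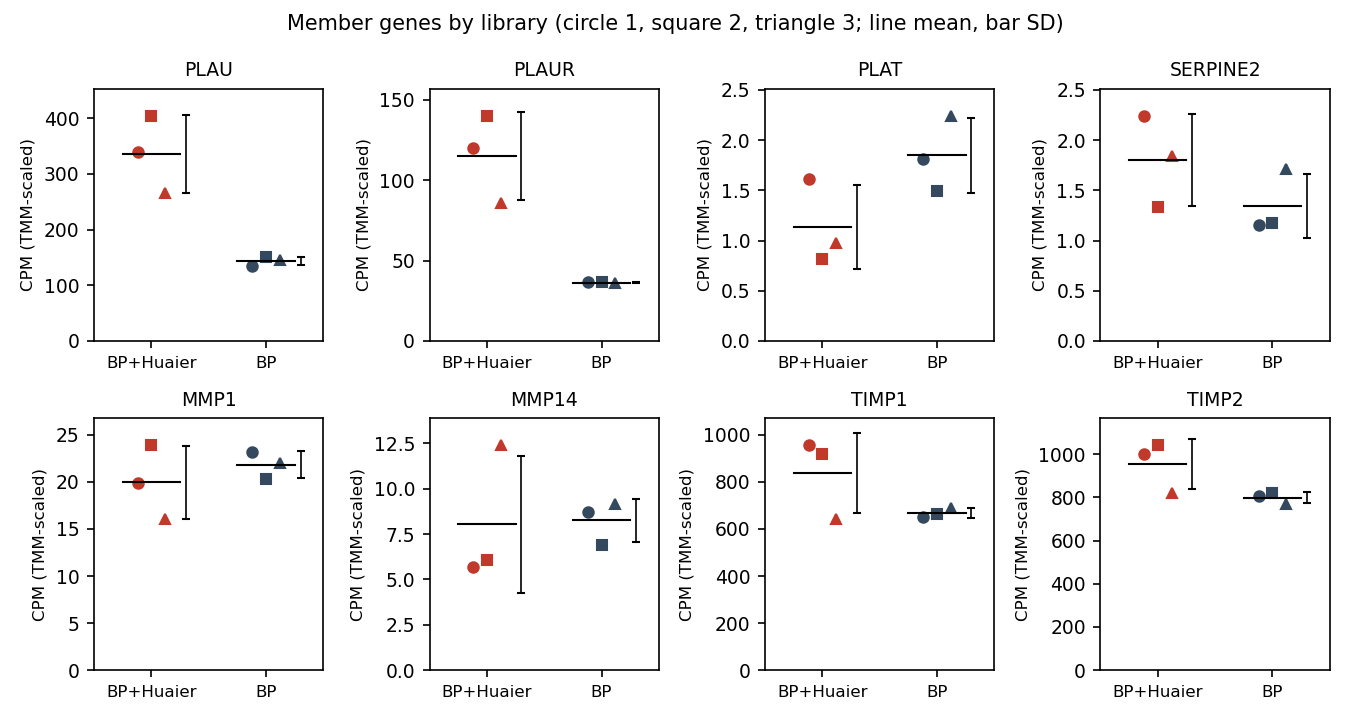
Level of the 8 detected members in each library, in TMM-scaled CPM on a linear axis from 0, with BP+Huaier libraries in red on the left and BP libraries in dark blue on the right. Symbols give the library number, lines the group mean and bars the SD of 3 libraries. For PLAU and PLAUR no BP point reaches the lowest BP+Huaier point, and the groups did not overlap for 46.8% of all tested genes. BP+Huaier 3 (triangle) departs from BP+Huaier 1 and 2 for MMP14 and TIMP1.

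PLAU (ENSG00000122861.16, GRCh38 chromosome 10, 73909177 to 73917496, plus strand) was at 339, 404 and 265 CPM in BP+Huaier 1, 2 and 3, against 135, 150 and 146 CPM in BP 1, 2 and 3. The groups did not overlap, which held for 46.8% of all tested genes, and BP+Huaier 3 was the lowest of its group. Its mean was 336 ± 69.5 CPM in BP+Huaier and 144 ± 8.21 CPM in BP (SD, n = 3 each). The log2 fold change was 1.23 ± 0.17 (SE, 95% interval 0.83 to 1.62, edgeR adjusted p = 0.0022). Set against the BP mean, the CPM ratio was 2.36, 2.81 and 1.84 in BP+Huaier 1, 2 and 3.

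PLAU shares 915 of its 2949 exon bases with C10orf55 on the opposite strand, or 31.0%. No source states whether strand was used in counting, so reads on those bases cannot be assigned with certainty. C10orf55 had 30, 19 and 30 counts in BP+Huaier 1, 2 and 3, against 43, 30 and 67 counts in BP 1, 2 and 3, in all 0.966% of the counts of PLAU. It was not called (log2 fold change -0.59 ± 0.37, edgeR adjusted p = 0.25).

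PLAUR (ENSG00000011422.12, chromosome 19, 43646095 to 43670547, minus strand), the urokinase receptor, is anchored to the membrane by a lipid tail. It was at 120, 140 and 85.6 CPM in BP+Huaier 1, 2 and 3, against 36.5, 36.4 and 36.1 CPM in BP 1, 2 and 3. The BP libraries lay within 1 CPM of each other, and every BP+Huaier library was at least 2.36 times their mean. The means were 115 ± 27.5 CPM in BP+Huaier and 36.3 ± 0.226 CPM in BP. The log2 fold change was 1.66 ± 0.19 (95% interval 1.24 to 2.08, edgeR adjusted p = 0.0011), and no other gene shares its exon bases.

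The calls of PLAU and PLAUR held in all 14 alternatives, including each library left out in turn. The edgeR adjusted p without each library lay between 1.1e-07 and 0.020 for PLAU and between 1.7e-08 and 0.014 for PLAUR. Without BP+Huaier 3 the folds were 2.60 for PLAU and 3.60 for PLAUR, and without BP+Huaier 2, the highest library for both, they were 2.12 and 2.86. The longest transcripts of PLAU and PLAUR have 54.0% and 55.7% GC, and the median over tested genes is 49.4%. With each library corrected for a GC and length trend, the folds were 2.1 and 2.69 and both were still called (edgeR adjusted p = 3.2e-04 and 1.3e-04).

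PLAT (ENSG00000104368.19, chromosome 8, 42174718 to 42207709), tissue plasminogen activator, cuts plasminogen, mainly where that is bound to fibrin. It had 23, 11 and 17 counts in BP+Huaier 1, 2 and 3, against 33, 28 and 38 counts in BP 1, 2 and 3. On the CPM scale BP+Huaier libraries lay between 0.813 and 1.61 and BP libraries between 1.49 and 2.24, so the groups overlapped. The log2 fold change of -0.70 ± 0.35 had a 95% interval of -1.49 to 0.09 and an edgeR adjusted p of 0.15. At this depth a fall to 0.356 times the BP level and a rise to 1.06 times both lie within the interval.

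SERPINE2 (ENSG00000135919.14, chromosome 2, 223975045 to 224039318), protease nexin-1, inhibits thrombin, urokinase and plasmin. It had 32, 18 and 32 counts in BP+Huaier 1, 2 and 3, against 21, 22 and 29 counts in BP 1, 2 and 3. The means of 1.80 ± 0.454 CPM in BP+Huaier and 1.35 ± 0.318 CPM in BP gave a log2 fold change of 0.43 ± 0.32 (95% interval -0.30 to 1.16, edgeR adjusted p = 0.34). The counts of PLAT and SERPINE2 were too low to place either change closely.

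**Figure D2:**
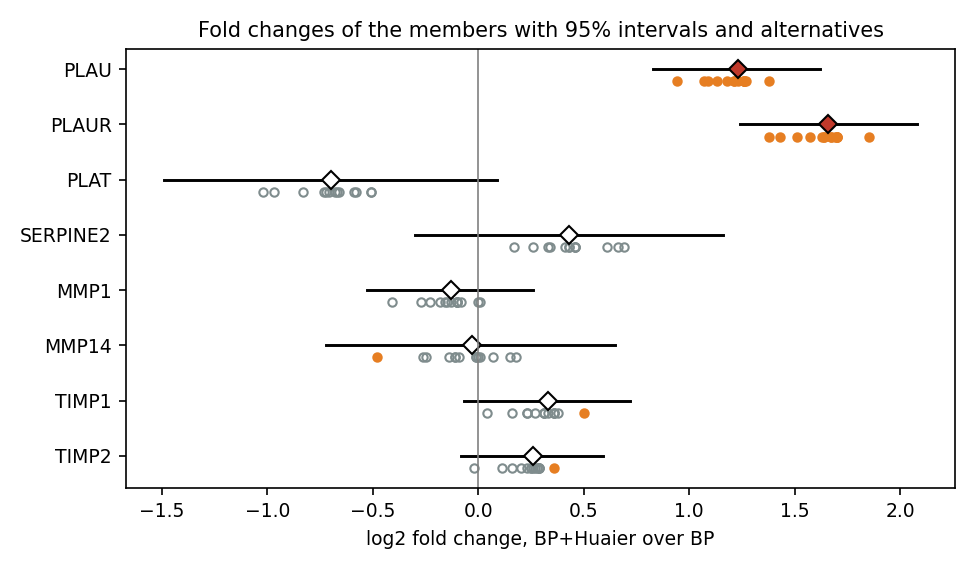
Log2 fold change of BP+Huaier over BP for the 8 tested members. Diamonds are the edgeR estimates, filled where called, lines their 95% intervals, and the circles beneath them the estimates under the alternatives that tested the gene, 14 each and 13 for PLAT and SERPINE2, orange where called and open grey where not. The intervals of PLAU and PLAUR lie above 0 and those of the other 6 include 0, and the orange circles of MMP14, TIMP1 and TIMP2 are the fit without BP+Huaier 3.

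MMP1 (ENSG00000196611.6, chromosome 11, 102789401 to 102798160) is interstitial collagenase, which cuts fibrillar collagens. It was at 19.9, 23.9 and 16.1 CPM in BP+Huaier 1, 2 and 3, against 23.2, 20.3 and 22 CPM in BP 1, 2 and 3. The groups overlapped, and the log2 fold change was -0.13 ± 0.17 (95% interval -0.53 to 0.26, edgeR adjusted p = 0.58). In this fit the 95% interval ran from 0.693 to 1.20 times the BP level. MMP1 shares 8.14% of its exon bases with WTAPP1 on the opposite strand, which had 5 counts over all libraries.

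MMP14 (ENSG00000157227.14, chromosome 14, 22836560 to 22849041), the membrane-anchored MT1-MMP, cuts collagen and activates pro-MMP2. It was at 5.66, 6.06 and 12.4 CPM in BP+Huaier 1, 2 and 3, against 8.73, 6.92 and 9.15 CPM in BP 1, 2 and 3. BP+Huaier 1 and 2 lay under every BP library and BP+Huaier 3 lay over every BP library. The log2 fold change was -0.03 ± 0.30 (95% interval -0.72 to 0.65, edgeR adjusted p = 0.95). Without BP+Huaier 3 it was -0.48 and MMP14 was called lower (edgeR adjusted p = 0.037), in a fit that called 59.8% of the genes it tested.

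TIMP1 (ENSG00000102265.12, chromosome X, 47582408 to 47586789) and TIMP2 (ENSG00000035862.12, chromosome 17, 78852977 to 78925387) encode secreted MMP inhibitors, of which TIMP2 also takes part in the activation of pro-MMP2 by MT1-MMP. TIMP1 was at 956, 917 and 644 CPM in BP+Huaier 1, 2 and 3, against 650, 665 and 689 CPM in BP 1, 2 and 3. BP+Huaier 3 was below all BP libraries and the other BP+Huaier libraries were above them. The log2 fold change was 0.33 ± 0.17 (95% interval -0.07 to 0.72, edgeR adjusted p = 0.18). TIMP2 was at 999, 1041 and 821 CPM in BP+Huaier 1, 2 and 3, against 807, 819 and 771 CPM in BP 1, 2 and 3. The groups of TIMP2 did not overlap, which held for 46.8% of all tested genes, and BP+Huaier 3 and BP 2 nearly met. The log2 fold change of TIMP2 was 0.26 ± 0.15 (95% interval -0.08 to 0.59, edgeR adjusted p = 0.22). Without BP+Huaier 3 TIMP1 was 1.41-fold and TIMP2 1.29-fold higher, and both were called (edgeR adjusted p = 1.1e-04 and 0.0013). That fit called 59.8% of the genes it tested, with 4452 higher and 4793 lower, and among the members 4 were higher and 1 lower. With scaling by library size alone the log2 fold change was 0.04 for TIMP1 and -0.02 for TIMP2, and this scaling put the median over all genes at -0.28 and the share of higher genes among all calls at 26.2%, where TMM scaling gave -0.02 and 49.0%. TIMP2 shares 3.52% of its exon bases with CEP295NL on the same strand, whose counts were 0.260% of those of TIMP2. It shares a further 6.52% with ENSG00000267601 on the opposite strand, which had 0 counts over all libraries.

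TIMP3 (ENSG00000100234.12, chromosome 22, 32801705 to 32863041), the TIMP that binds to the matrix, had 0 counts in all 6 libraries, which allows up to 0.222 CPM in a BP+Huaier library and 0.177 CPM in a BP library at a limit of 3 counts. This limit covers counting error only, and no fold change was computed. TIMP4 also had no count.

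Per exon length the order of the members by mean level was the same in both groups down to MMP14. TIMP1 was highest, at 580 ± 117 CPM per kb in BP+Huaier and 462 ± 13.8 in BP. TIMP2 followed at 169 ± 20.7 CPM per kb in BP+Huaier and 142 ± 4.47 in BP, and PLAU at 114 ± 23.6 in BP+Huaier and 48.7 ± 2.78 in BP. In BP+Huaier the lowest TIMP2 library, at 146 CPM per kb, lay just over the highest PLAU library, at 137, while in BP they were far apart. PLAUR was at 25.8 ± 6.16 CPM per kb in BP+Huaier, over all MMP1 libraries, and at 8.15 ± 0.0508 in BP, within the spread of MMP1. MMP1 was at 7.29 ± 1.42 CPM per kb in BP+Huaier and 7.99 ± 0.533 in BP, and MMP14 at 1.74 ± 0.817 in BP+Huaier and 1.79 ± 0.257 in BP. SERPINE2 (0.201 ± 0.0507 in BP+Huaier and 0.150 ± 0.0355 in BP) and PLAT (0.146 ± 0.0539 in BP+Huaier and 0.238 ± 0.0487 in BP) were lowest. Their libraries overlapped in BP+Huaier, and in BP every PLAT library was level with or over the highest SERPINE2 library. Exon length here is that of all transcripts of a gene merged, which can exceed that of the transcripts in these cells.

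**Figure D3:**
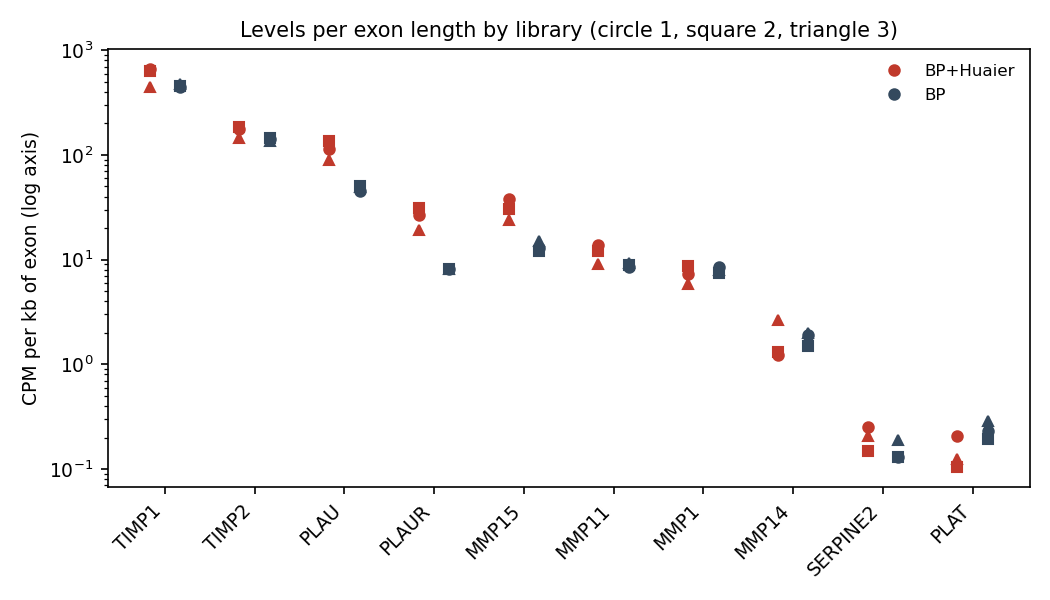
Levels per kb of merged exon length in each library, in TMM-scaled CPM per kb on a log axis, for the 8 detected members and for MMP15 and MMP11. BP+Huaier libraries (red) stand left of BP libraries (dark blue) for each gene. PLAU, PLAUR and MMP15 are shifted upwards in BP+Huaier, and TIMP1 and TIMP2 are the highest members in both groups.

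Of 23 other genes of the plasminogen system and of coagulation described here 13 were tested. Of these, 15.4% (2 genes) were called higher and 7.69% (1 gene) lower, beside 14.4% and 15.0% of all tested genes, and the median log2 fold change was 0.14. PLG, which encodes plasminogen itself, had no count in any library. F12, coagulation factor XII, rose 2.01-fold (16.8 ± 5.30 CPM in BP+Huaier and 8.37 ± 0.236 CPM in BP, edgeR adjusted p = 0.016). PROCR, the protein C receptor, rose 1.57-fold (45.9 ± 9.40 CPM in BP+Huaier and 29.3 ± 0.618 CPM in BP, edgeR adjusted p = 0.022). TFPI, an inhibitor of tissue factor, fell by 0.52 on the log2 scale (137 ± 28.6 CPM in BP+Huaier and 197 ± 11.7 CPM in BP, edgeR adjusted p = 0.046). Leaving out any BP library or BP+Huaier 2 took away the calls of F12 and PROCR (edgeR adjusted p of at most 0.067 and 0.090), and the call of TFPI was kept without BP+Huaier 3 and lost without each other library (at most 0.17). The call of TFPI was also lost with DESeq2 size factors (edgeR adjusted p = 0.053), with the replicate block (0.085) and once corrected for GC and length (log2 fold change -0.22, 0.058). That of PROCR was lost with library size alone (0.087). Rises among these genes numbered 0 without each BP library or BP+Huaier 2 and 6 without BP+Huaier 3. Over all genes, rises numbered 810, 834 and 1021 without BP 1, 2 and 3, 952 without BP+Huaier 2 and 4452 without BP+Huaier 3. Of the docking proteins of plasminogen, ANXA2 and S100A10 were abundant and not called, with ANXA2 at 886 ± 140 CPM in BP+Huaier and 803 ± 4.0 CPM in BP (edgeR adjusted p = 0.51) and S100A10 at 338 ± 90.3 CPM in BP+Huaier and 279 ± 8.74 CPM in BP (0.31). PLGRKT, the plasminogen receptor with a C-terminal lysine, averaged 11 ± 1.0 CPM in BP+Huaier and 10.5 ± 0.623 CPM in BP and was not called (edgeR adjusted p = 0.74). LRP1, a clearance receptor for urokinase bound to its inhibitors, was at 126 ± 12 CPM in BP+Huaier and 129 ± 13.4 CPM in BP (edgeR adjusted p = 0.88).

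The protease transcript outweighed that of its receptor in every library. The ratio of PLAU to PLAUR, per kb, was 4.27, 4.36 and 4.68 in BP+Huaier 1, 2 and 3, against 5.57, 6.24 and 6.13 in BP 1, 2 and 3. Each BP+Huaier value lay under all BP values. The ratio of TIMP1 to MMP1, neither of which was called, was 79.8 ± 9.69 in BP+Huaier and 58.1 ± 4.61 in BP. The ratio of TIMP2 to MMP14 was 145, 141 and 54.4 in BP+Huaier 1, 2 and 3, against 75.8, 97.2 and 69.1 in BP 1, 2 and 3, so the groups overlapped and BP+Huaier 3 was the lowest library.

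Of the 21 other MMP genes 6 were tested and 2 of them rose (33.3%), beside 14.4% of all tested genes. MMP15, or MT2-MMP, was at 160, 128 and 101 CPM in BP+Huaier 1, 2 and 3, against 55, 51.2 and 64.4 CPM in BP 1, 2 and 3. It rose 2.28-fold (log2 fold change 1.19 ± 0.19, edgeR adjusted p = 0.0033) and was called in all 14 alternatives. The longest MMP15 transcript has 66.0% GC, and once corrected for GC and length the rise was 1.65-fold (edgeR adjusted p = 4.2e-04). That log2 fold change, 0.72, lies under the 95% interval of the main fit, 0.77 to 1.61. MMP17, or MT4-MMP, rose 1.62-fold (15.5 ± 3.97 CPM in BP+Huaier and 9.59 ± 1.09 CPM in BP, edgeR adjusted p = 0.040), a call lost in 9 of 14 alternatives, with an adjusted p of 0.33 once corrected for GC and length, and of the fits without 1 library it was called in that without BP+Huaier 3. Rises among these MMP genes numbered 4 without BP+Huaier 3 and 1 without each other library. Over all genes they numbered 4452 without BP+Huaier 3 and 810 to 1775 without each other library. MMP11, or stromelysin-3, was at 60.0 ± 12.4 CPM in BP+Huaier and 46.0 ± 2.31 CPM in BP and was not called (0.12). The membrane-anchored MMP24 and MMP25 were not called either, with log2 fold changes of -0.15 and -0.21 (both 0.62). MMP28 had low levels, at 2.09 ± 0.362 CPM in BP+Huaier and 1.21 ± 0.134 CPM in BP. Its log2 fold change was 0.78 ± 0.29 (95% interval 0.13 to 1.43) and it was not called (edgeR adjusted p = 0.07). None of the 6 fell, beside 15.0% of all tested genes, and their median log2 fold change was 0.54. The gelatinases were close to absent, with MMP2 under the limit of 3 counts and MMP9 under 0.5 CPM in every library. Of the summed level per kb over all MMP genes, MMP15 made up 52.9% ± 3.36 in BP+Huaier and 36.4% ± 1.71 in BP, MMP1 made up 12.7% ± 1.90 in BP+Huaier and 21.7% ± 1.45 in BP, and MMP14 made up 3.25% ± 2.14 in BP+Huaier and 4.84% ± 0.417 in BP. The sum itself was 57.7 ± 10.1 CPM per kb in BP+Huaier and 36.9 ± 2.72 in BP. Neither the shares nor the sum were corrected for the GC trend.

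**Figure D4:**
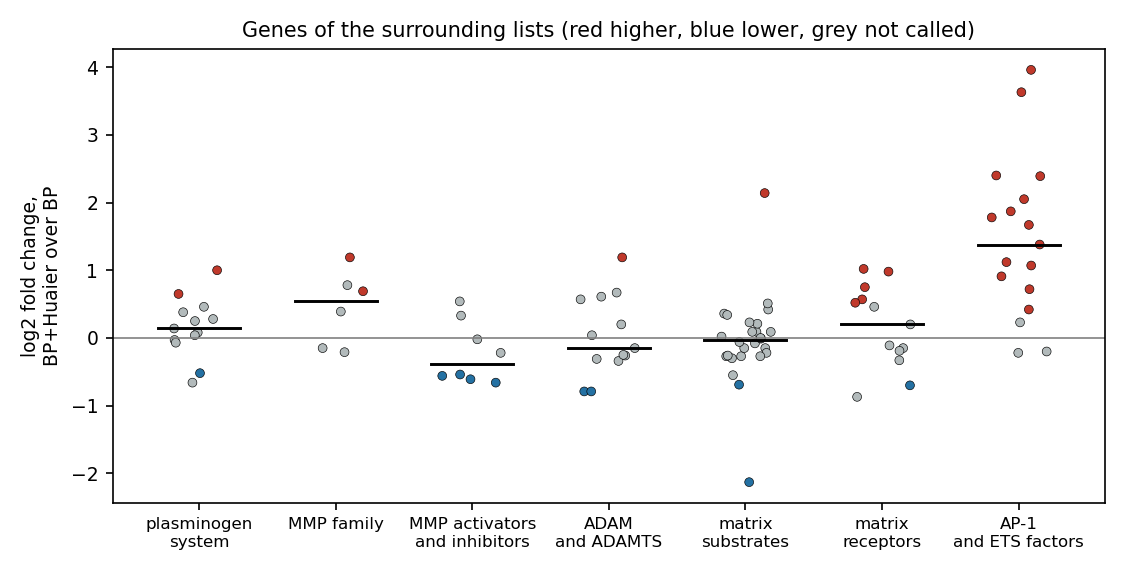
Log2 fold change of BP+Huaier over BP for each tested gene of the 7 lists around the members, with red for genes called higher, blue for genes called lower and grey for the rest, and a line at the median of the list. The list of AP-1 and ETS factors lies highest, with a median of 1.38, and the activators and inhibitors of MMPs lie lowest, with a median of -0.38.

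Among 8 tested activators and inhibitors of MMPs none rose and 50.0% (4 genes) fell, beside 14.4% and 15.0% of all tested genes. Their median log2 fold change was -0.38. PCSK6, a proprotein convertase, was at 10.2 ± 1.92 CPM in BP+Huaier and 16.2 ± 1.77 CPM in BP (log2 fold change -0.66 ± 0.19, edgeR adjusted p = 0.028). SPOCK1, a matrix proteoglycan, was at 5.58 ± 1.06 CPM in BP+Huaier and 8.54 ± 0.843 CPM in BP (adjusted p = 0.049), and CAV1, the caveolae protein, at 31.7 ± 2.49 CPM in BP+Huaier and 46.7 ± 2.64 CPM in BP (adjusted p = 0.016). The other one was CLDN1, a tight junction protein (adjusted p = 0.034). Over all genes, 909 to 1056 fell without a BP library, 1845 and 1015 without BP+Huaier 1 and 2, and 4793 without BP+Huaier 3. Falls among these genes numbered 0 without each BP library, 1 without BP+Huaier 1 or BP+Huaier 2 and 4 without BP+Huaier 3, which also gave 2 rises. CAV1 was the gene still called without BP+Huaier 1 or 2. There were 2 falls with no filter on low counts, 1 with the replicate block and 0 at an adjusted p under 0.01. SPOCK1 was also not called with DESeq2 size factors (edgeR adjusted p = 0.053), with no filter (0.076) and with the replicate block (0.078). FURIN, the main convertase of pro-MMP14, was at 129 ± 30.2 CPM in BP+Huaier and 103 ± 5.73 CPM in BP and was not called (adjusted p = 0.19), and neither was BSG, an inducer of MMPs, at 1880 ± 516 CPM in BP+Huaier and 1290 ± 109 CPM in BP (0.085). RECK, a membrane inhibitor of MMPs, stayed under the limit of 3 counts in every library.

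Of 13 tested ADAM and ADAMTS genes 7.69% (1 gene) rose and 15.4% (2 genes) fell, beside 14.4% and 15.0% of all tested genes. Their median log2 fold change was -0.15. ADAMTS4, an aggrecanase, rose 2.28-fold (19.2 ± 3.41 CPM in BP+Huaier and 8.45 ± 1.41 CPM in BP, edgeR adjusted p = 0.0041), and ADAMTS13, which cuts von Willebrand factor, was 1.73-fold lower (7.34 ± 0.646 CPM in BP+Huaier and 12.8 ± 0.352 CPM in BP, adjusted p = 0.0079). Both were called in all 14 alternatives. ADAM8 was 1.73-fold lower as well (11.9 ± 3.96 CPM in BP+Huaier and 20.7 ± 2.64 CPM in BP, adjusted p = 0.034), a call lost without every library but BP+Huaier 3. Without BP+Huaier 3, 3 genes of this list rose and 4 fell, in a fit that called 59.8% of the genes it tested. ADAM17, the sheddase that TIMP3 inhibits, was at 73.2 ± 12.4 CPM in BP+Huaier and 63.6 ± 1.07 CPM in BP and was not called (0.32).

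Among 26 tested genes for matrix proteins that these enzymes cut, 1 rose (3.85%) and 2 fell (7.69%), with a median log2 fold change of -0.03. Over all tested genes the shares were 14.4% and 15.0%. Falls numbered 6 with library size alone and 6 once corrected for GC and length. COL5A1, a chain of collagen V, was at 13.7 ± 3.99 CPM in BP+Huaier and 22.1 ± 1.89 CPM in BP (log2 fold change -0.69 ± 0.21, edgeR adjusted p = 0.039), a call lost without every library but BP+Huaier 3. Without BP+Huaier 3, 5 genes of this list rose and 6 fell, in a fit that called 59.8% of the genes it tested. COL1A1 and FN1, chosen after their values were seen, had low levels and were called in all 13 alternatives that tested them. COL1A1 was at 5.92 ± 0.648 CPM in BP+Huaier and 1.34 ± 0.101 CPM in BP, 4.40-fold higher (adjusted p = 8.9e-04). FN1, fibronectin, was at 0.615 ± 0.368 CPM in BP+Huaier and 2.67 ± 0.579 CPM in BP, 4.39-fold lower (adjusted p = 0.0071). Of 13 tested matrix receptors 38.5% (5 genes) rose and 7.69% (1 gene) fell, beside 14.4% and 15.0% of all tested genes. ITGA5, the alpha chain of the fibronectin receptor, rose 1.97-fold (174 ± 39.6 CPM in BP+Huaier and 88.1 ± 3.77 CPM in BP, adjusted p = 0.0060). The syndecans SDC1 and SDC4, heparan sulfate proteoglycans of the cell surface, rose 2.03-fold and 1.68-fold (adjusted p = 0.010 and 0.015). The other called receptors were ITGB4 and DDR1, higher, and DDR2, lower. SDC1 was not called without BP 2 (adjusted p = 0.060), and SDC4 was not called without each BP library or BP+Huaier 2 (at most 0.070). ITGB4, DDR1 and DDR2 kept their calls without BP+Huaier 3 and lost them without each other library. ITGB4 was also not called with library size alone (0.13), with at least 5 CPM (0.067) and once corrected for GC and length (log2 fold change 0.15, 0.21), and DDR1 was not with library size alone (0.094). With the replicate block neither ITGB4 nor DDR1 was called (edgeR adjusted p = 0.11 and 0.082). Without a BP library the receptor rises numbered 1 or 2, and without BP+Huaier 3 there were 6 rises and 4 falls. Over all genes, 810 to 1021 rose without a BP library, and 4452 rose and 4793 fell without BP+Huaier 3.

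Several AP-1, ETS and related factors are known to act at PLAU, PLAUR and MMP1, and their part in the changes here was not tested. Of 17 such factors tested, 82.4% (14 genes) rose and none fell, beside 14.4% and 15.0% of all tested genes. The median log2 fold change was 1.38, and 2 of the factors fell without BP+Huaier 3, in a fit that called 59.8% of the genes it tested. ETS1, ETV1 and SP1 were not called, with log2 fold changes of -0.22, -0.20 and 0.23 (edgeR adjusted p = 0.29, 0.47 and 0.29). FOSB rose 15.5-fold (31.7 ± 25.2 CPM in BP+Huaier and 2.03 ± 0.677 CPM in BP, adjusted p = 0.0023), FOS 12.4-fold (93.0 ± 105 CPM in BP+Huaier and 7.49 ± 0.743 CPM in BP, adjusted p = 0.0080) and EGR1 5.28-fold (437 ± 77.4 CPM in BP+Huaier and 82.8 ± 1.37 CPM in BP, adjusted p = 4.2e-04). FOS reached 214 CPM in BP+Huaier 2, and its log2 fold change was 2.14 without that library. FOSB was 8.51-fold higher without BP+Huaier 2, where it reached 60.9 CPM.

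The gene whose pattern was most like PLAU, by Pearson r of log2(CPM + 1) over the 6 libraries among 10594 genes of at least 5 CPM, was YWHAH, with an r of 0.9999. Those most like PLAUR were CNNM4, EZR and TOB2, with r from 0.9994 to 0.9999. For PLAU and PLAUR themselves r was 0.9958, with PLAUR in place 32 for PLAU and PLAU in place 53 for PLAUR. YWHAH, CNNM4, EZR and TOB2 were all called higher, and since the libraries share 2 groups, r mostly follows the difference between groups and the place of BP+Huaier 3.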

How the data were processed

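Per the labels' protocols, TRIzol RNA was made into libraries with a NEBNext Ultra kit and sequenced in pairs on a NovaSeq. The authors used fastp 0.20.0, HISAT2 2.1.0 and featureCounts 1.6.1 on GRCh38, per the submitters' processing notes. No source states the annotation release or the strand and multi-mapping settings. The deposited values are raw counts per gene, with the merged exon length beside them, and were used as deposited. Second copies of pseudoautosomal genes (44, with 0 counts) and 3 lines over which 1 gene is broken were left out. Symbols matched 99.77% of the gene IDs, and GC content came from GENCODE transcripts.

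Counts were tested in R 4.3.3 with edgeR 4.0.16 (filterByExpr by group, TMM, robust quasi-likelihood test, group as the only term, Benjamini-Hochberg adjusted p under 0.05, two-sided) over 15022 genes. The common biological coefficient of variation was 18.1%. The fit shares a dispersion between groups, although BP+Huaier libraries differed more among themselves (17.6 to 78.7 times the sampling variance) than BP libraries did (3.76 to 10.1 times). These ratios scaled libraries by total counts without TMM factors, so differences in scaling may add to them. The TMM factor was 1.039 in BP+Huaier 3 and 0.85 and 0.857 in BP+Huaier 1 and 2, the pair with the ratio of 17.6. Standard errors and intervals are those implied by the test. Alternatives were DESeq2 size factors, library size alone, DESeq2 1.42.0, limma-voom (limma 3.58.1), no filter, at least 5 CPM, the replicate number as a block, removal of a GC and length trend, each library left out, and, for counts, an adjusted p under 0.01. Their use on the lists was added after seeing the data. Of the fits only the main edgeR fit was tested on simulated counts, which held far fewer changed genes than were called here. The simulation gave both groups the same dispersion, unlike these libraries. The members, lists and tests were chosen with earlier results of these data known. Some genes that these rules name are not reported here, and the list counts leave them out. The text names all members and, per list, the 3 called genes that changed most among those averaging 5 CPM or more, and other genes were chosen after their values were seen. Figures were drawn with matplotlib 3.10.9.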

Additional observations from a re-analysis of the deposited data

How the results depend on the processing

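PLAU and PLAUR kept their direction and call in all 14 alternatives, with log2 fold changes of 0.94 to 1.38 and 1.38 to 1.85. Leaving out each library in turn gave 1.09 to 1.38 for PLAU, 1.51 to 1.85 for PLAUR, -1.02 to -0.51 for PLAT, 0.26 to 0.66 for SERPINE2, -0.27 to 0.01 for MMP1, -0.48 to 0.18 for MMP14, 0.23 to 0.50 for TIMP1 and 0.20 to 0.36 for TIMP2. Signs also turned for MMP1 after GC and length trend removal (0.00), for MMP14 with no filter on low counts (0.00) and for TIMP2 with library size alone (-0.02), none of them called, and the cause was not tested. Members called higher numbered 2 to 4 and lower 0 to 1, where 4 and 1 are without BP+Huaier 3, in a fit that called 59.8% of the genes it tested.

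Over all genes, 810 to 4452 were higher and 909 to 4793 lower when a library was left out. Without BP 1, 2 and 3 there were 810, 834 and 1021 higher, and without BP+Huaier 2 and 3 there were 952 and 4452. Library size alone gave 1051 higher and 2959 lower, 26.2% of calls higher instead of 49.0%. At least 5 CPM gave 1363 lower with fewer genes tested, and an adjusted p under 0.01 gave 826 higher and 810 lower. Across the lists 25 genes were higher and 10 lower, and 14 of those higher and none of those lower were in the list of AP-1 and ETS factors. Over all tested genes 14.4% were higher and 15.0% lower, and the shares of each list are given above. Genes of the lists numbered 17 to 40 higher and 2 to 21 lower when a library was left out. Falls numbered 17 with library size alone, 6 with the replicate block and 2 at an adjusted p under 0.01. The list genes named because they changed most had 252 fold changes under alternatives, of which none reversed and 58 lost their call. Outside that number, CLDN1 was called in 7 of 14 alternatives, ITGB4 in 5, DDR1 in 7 and DDR2 in 9. COL1A1 and FN1 were called in all 13 that tested them.

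With the replicate number as a block, 1357 genes were higher and 1742 lower, and PLAU and PLAUR stayed called (edgeR adjusted p = 0.0067 and 0.0028). Deviations from the group mean gave r of 0.01, -0.06 and -0.28 between same-numbered libraries and of -0.26 to 0.26 between differently numbered ones. With 3 libraries per group and BP+Huaier 3 apart from its group, this cannot settle whether libraries were paired. The main fit used no pairs. PLAT and SERPINE2, with at most 38 counts in a library, are limited by depth.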
